A study of Rattus norvegicus with 12 samples.

Results

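Tmem150c, Tex13b, Adam8 and Tuba3b are 4 genes whose read counts in rat liver were higher on a high-fat diet than on normal feeding, and none of them is a known enzyme or carrier of lipid. They were picked for that difference, by their names, and are 4 of the 16558 genes in the count tables joined here. All 4 were among the 12355 genes with enough counts to be tested. The choice used the counts of the high-fat and the normal libraries, so every value that sets a high-fat group against normal liver is given below as a description with no p-value. The differences between the high-fat groups were not part of the rule and were tested. Libraries of all high-fat groups entered the choice, which was made with earlier results of these data known.

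The libraries came from liver of Sprague Dawley rats, an outbred stock whose sex and age the labels leave out. Normal rats received saline. Model rats ate a high-fat diet for 8 weeks to bring on fatty liver, and 2 further groups ate the high-fat diet and received didymin, a citrus flavonoid glycoside, at a low or a high dose. The count columns carry the letters N, M, D and G, with 3 libraries each, and the didymin groups are named arm D and arm G below because the doses cannot be assigned to letters. The 9 libraries of the model, arm D and arm G are called the high-fat libraries, and they share the diet. Whole liver was used, so fewer cells of a type and less RNA per cell cannot be told apart. Nothing in the labels ties a library to its own animal, and the p-values then measure the spread between these libraries, which may in part be technical.

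The 4 genes belong to unrelated families. Tmem150c encodes a membrane protein of the TMEM150 family that has been linked to mechanically activated currents in sensory neurons. Adam8 encodes a membrane-anchored metalloprotease of leukocytes that sheds adhesion molecules and receptors from cell surfaces. Tuba3b encodes an alpha-tubulin, the partner of beta-tubulin in microtubules, from a group of alpha-tubulin genes best known in testis. Tex13b is an X-linked gene first described as testis-expressed, and little is known of its protein.

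The promoters are shown because the 4 genes were higher together in the high-fat libraries, and Tuba3a is added as the closest relative of Tuba3b. RefSeq, build GRCr8, gave the 250 bases before the start of each gene, and all 4 names matched. Each sequence reads 5′ to 3′ on the strand of its gene, and capitals mark matches to the motifs searched on both strands: the TATA box spelled as TATAAA, the box named for its letters CCAAT, the GC box spelled as GGGCGG, the E-box spelled as CACGTG, the AP-1 site spelled as TGANTCA, and the DR1 element, a direct repeat bound by nuclear receptor pairs such as those of the PPAR family.
Tmem150c, chr14:9759387-9759636, forward strand: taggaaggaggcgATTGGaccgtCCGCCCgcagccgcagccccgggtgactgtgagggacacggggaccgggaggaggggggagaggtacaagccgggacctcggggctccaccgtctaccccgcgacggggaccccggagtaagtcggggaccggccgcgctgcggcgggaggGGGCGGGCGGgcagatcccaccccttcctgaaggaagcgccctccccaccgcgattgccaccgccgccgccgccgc
Tex13b, chrX:109299719-109299968, reverse strand: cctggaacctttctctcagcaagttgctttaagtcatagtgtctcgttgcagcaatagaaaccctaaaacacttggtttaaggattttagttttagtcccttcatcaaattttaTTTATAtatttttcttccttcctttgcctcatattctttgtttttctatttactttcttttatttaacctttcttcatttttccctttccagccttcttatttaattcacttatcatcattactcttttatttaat
Adam8, chr1:204218323-204218572, reverse strand: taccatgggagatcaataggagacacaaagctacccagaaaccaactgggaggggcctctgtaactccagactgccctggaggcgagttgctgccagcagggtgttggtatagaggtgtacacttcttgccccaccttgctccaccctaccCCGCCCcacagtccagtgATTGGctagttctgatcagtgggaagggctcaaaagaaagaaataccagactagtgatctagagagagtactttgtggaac
Tuba3b, chr4:180319350-180319599, forward strand: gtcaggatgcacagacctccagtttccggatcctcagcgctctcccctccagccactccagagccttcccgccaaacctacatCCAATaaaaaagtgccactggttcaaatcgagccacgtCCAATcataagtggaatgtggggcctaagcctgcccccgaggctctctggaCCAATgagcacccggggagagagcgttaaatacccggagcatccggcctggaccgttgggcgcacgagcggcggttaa
Tuba3a, chr4:159770201-159770450, reverse strand: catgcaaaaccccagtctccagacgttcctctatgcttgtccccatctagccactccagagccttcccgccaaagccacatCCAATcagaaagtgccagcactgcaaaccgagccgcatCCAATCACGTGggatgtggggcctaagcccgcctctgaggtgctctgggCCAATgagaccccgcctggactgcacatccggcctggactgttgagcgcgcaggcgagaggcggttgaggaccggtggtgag
The promoters differed in composition and in the motifs they held. Tmem150c had a GC content of 75.2%, against a median of 52.0% over 27457 rat promoters of the same length, with 3 GC boxes and 1 CCAAT box, and the neighbouring GC boxes at 76 and 72 bases before the start overlap. Tex13b, for which the table lists 3 starts and the most upstream was used, had a GC content of 30.0% and 1 TATAAA match, on the opposite strand at 136 bases before the start. Adam8 had a GC content of 52.4% with 1 CCAAT box and 1 GC box, and Tuba3b a GC content of 58.8% with CCAAT boxes at 167, 129 and 78 bases before the start. Tuba3a carried its 3 CCAAT boxes at 169, 131 and 82 bases, and 193 of 280 aligned columns (68.9%) were identical to Tuba3b, whereas every other pair of these promoters had between 35.4% and 47.9% identical columns. No motif was found in all 4 of the chosen genes, and none of the 4 held an AP-1 site or a DR1 element in this window. Over all promoters, TATAAA was found in 13.1%, CCAAT in 34.3%, GGGCGG in 32.4%, CACGTG in 5.79%, TGANTCA in 6.36% and the DR1 element in 0.0546%. A match is a description of letters and not of a bound site.

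Total counts ranged from 12469914 to 15521648 per library. The share of counts from the 13 mitochondrially coded genes ranged from 3.85% to 18.8% in 10 libraries and was 44.1% in M.6, a model library, and 61.0% in G.3, a library of arm G. Nuclear-coded counts were therefore 7173229 in M.6 and 4869054 in G.3, against 10887482 to 14761817 elsewhere. The libraries M.6 and G.3 stood apart in this way, and results that turn on them are given with and without them. The name of the model library M2.1 has another form than M.5 and M.6, for a reason the labels do not give. All 8 hepatocyte markers were measured, with a summed level of 35374 CPM (counts scaled to library size, with TMM factors) in G.3 and 61703 CPM in M.6, against 114933 to 161829 CPM in the other libraries. With edgeR's quasi-likelihood test and Benjamini-Hochberg adjustment over 12355 genes, 0 genes (0%) passed an adjusted p of 0.05 in any of the 6 comparisons between groups. Where 0 genes of a list are said below to have passed, that equals this background and sets no list apart. At an unadjusted p under 0.05 the test found 607 genes (4.91%) for the model, 783 (6.34%) for arm D and 814 (6.59%) for arm G, each against normal, 776 (6.28%) for arm D and 287 (2.32%) for arm G against the model, and 423 (3.42%) for arm G against arm D. DESeq2 passed 42, 84, 51, 14, 5 and 5 genes in the same order at an adjusted p of 0.05, and limma-voom passed 0 in each.

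In all 4 genes each of the 9 high-fat libraries lay above each of the 3 normal libraries in CPM. Of all tested genes, 100 (0.809%) showed this pattern, and 649 (5.25%) had all model libraries above all normal libraries, as these 4 did. The genes were chosen for being high on the diet, so nothing is read from their count. The lowest high-fat library was 4.17 times the highest normal library for Tex13b, 2.71 times for Adam8, 2.14 times for Tmem150c and 1.79 times for Tuba3b. In raw counts the narrowest margin was that of Tuba3b, with 20 counts in G.3 against at most 17 in normal liver.

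**Figure D1:**
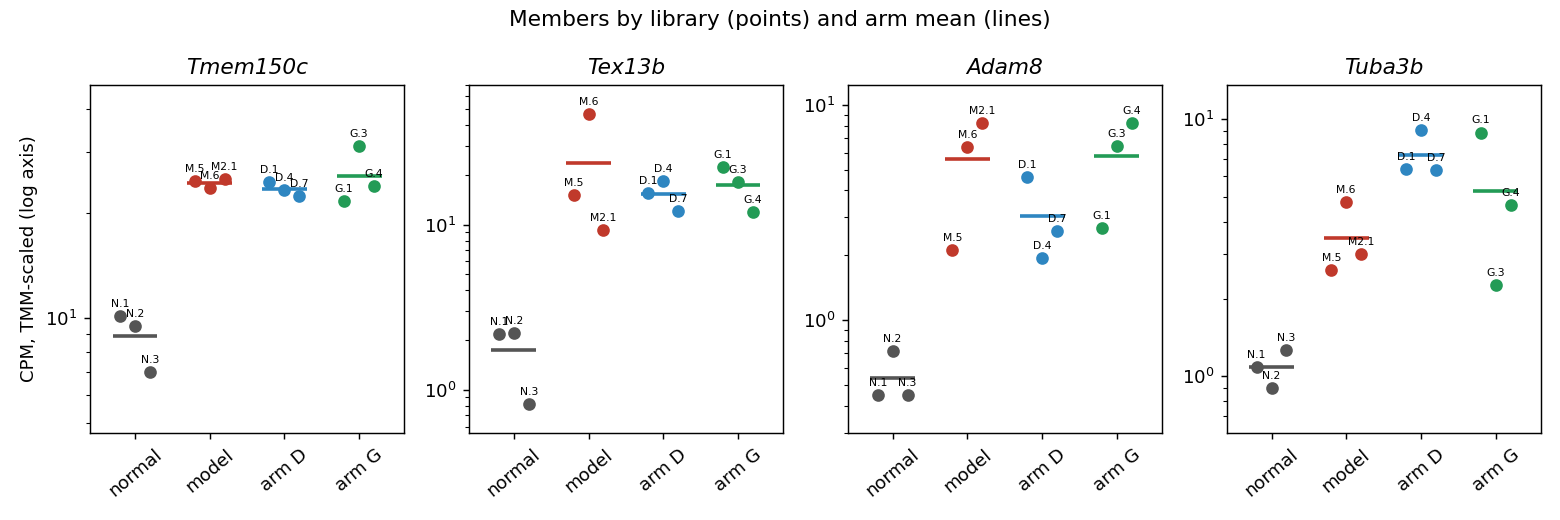
CPM on a log axis (TMM-scaled library sizes) of the 4 genes, 1 panel per gene, with 1 point per library, labelled, and a line at the mean of each arm of 3. All high-fat points lie above all normal points in each panel, closely grouped for Tmem150c (21.7 to 31.2 CPM) and widely spread for Tex13b (9.27 to 46.8 CPM).

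Tmem150c was the steadiest of the 4 on the high-fat diet. Normal libraries held 158, 158 and 94 counts of it, or 10.1, 9.49 and 7.01 CPM. Model libraries held 305, 263 and 464 counts in M.5, M.6 and M2.1, or 24.7, 23.7 and 25.2 CPM. The model values thus lay within a narrow band although the libraries differed in their mitochondrial share and in their total counts. Arm D had 24.5, 23.4 and 22.5 CPM in D.1, D.4 and D.7, and arm G had 21.7, 31.2 and 23.9 CPM in G.1, G.3 and G.4. Only G.3 lay above the range of the model libraries, and the 3 high-fat groups overlapped. Group means were 8.87 ± 1.64 CPM in normal liver, 24.5 ± 0.770 in the model, 23.5 ± 1.05 in arm D and 25.6 ± 4.99 in arm G (SD, n = 3 each). The order of the means was normal, arm D, model and arm G, and the neighbours among the 3 high-fat groups did not differ beyond their spread. Against normal liver the log2 fold change was 1.46 ± 0.23 (SE) in the model, 1.40 ± 0.23 in arm D and 1.52 ± 0.23 in arm G, which for the model is 2.76-fold.

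The coefficient of variation of Tmem150c over the 9 high-fat libraries was 11.2%. The median over 2075 genes of like level was 27.1%, and 2.60% of those genes varied less. Tex13b, at 59.5%, varied more than 89.2% of its 2243 level-matched genes, which had a median of 28.0%. Adam8 had 53.9% against a median of 39.5% over 1651 genes, and Tuba3b had 47.8% against 38.8% over 1709 genes. These figures describe the 9 libraries, which differ in treatment, so part of each spread is between arms.

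No relative of Tmem150c passed the test, and neither did any other tested gene in any comparison, so this does not set Tmem150c apart from them. Of the 4 other genes of the TMEM150 and DRAM family, which span the membrane in the same way and include regulators of autophagy, all were tested and 0 passed in any comparison. Tmem150a had mean levels of 197 ± 72.6 CPM in normal and 314 ± 197 CPM in model liver, a log2 fold change of 0.67 ± 0.55. Tmem150b, at 1.60 ± 0.301 and 2.04 ± 1.07 CPM, had 0.33 ± 0.59, and in arm D against the model it had 1.23 ± 0.58 (unadjusted p = 0.0558, edgeR). Among 9 tested genes of other mechanosensitive channels, 5 had positive and 4 negative log2 fold changes in the model against normal, with a median of 0.04 beside 0.03 over all genes, and 0 passed. Piezo1, a large mechanically gated cation channel, had 0.49 ± 0.34 in that comparison.

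Tex13b had the widest range of the 4 in the high-fat libraries. Normal libraries held 34, 37 and 11 counts, or 2.18, 2.22 and 0.820 CPM. Model libraries held 187, 520 and 171 counts in M.5, M.6 and M2.1, or 15.2, 46.8 and 9.27 CPM. The model thus held both the highest and the lowest of the 9 high-fat values, and the highest was in M.6, with its mitochondrial share of 44.1%. Arm D had 15.5, 18.3 and 12.04 CPM and arm G had 22.5, 18.04 and 11.99 CPM. G.3, the library with the highest mitochondrial share, held the middle value of arm G, and all values of both didymin arms lay inside the range of the model. Group means were 1.74 ± 0.797 CPM in normal liver, 23.7 ± 20.2 in the model, 15.3 ± 3.14 in arm D and 17.5 ± 5.27 in arm G (SD, n = 3 each). From low to high the means ran normal, arm D, arm G and model, and the 3 high-fat means did not differ beyond the spread of the model. The log2 fold change against normal was 3.75 ± 0.60 in the model, 3.12 ± 0.59 in arm D and 3.31 ± 0.59 in arm G (SE). Without M.6 the model value was 2.79, so that 1 library moved the fold by more than 1.5 times. With M.6 the model value of Tex13b was above that of Adam8, and without it below, at 2.79 against 3.24.

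No other gene of the TEX13 family that was looked for (Tex13a, Tex13c and Tex13d) has a row in the tables under those names. Of a list of 31 germ cell genes, 14 have a row and 4 passed the filter on low counts, and 0 passed the test in any comparison. Zpbp, a protein of the sperm acrosome, had 1 to 17 counts per library and a log2 fold change of 2.28 ± 0.65 in the model against normal (unadjusted p = 0.00436, adjusted p = 0.745, edgeR). Tex12 and Sycp3, parts of the synaptonemal complex that joins chromosomes in meiosis, had 0.73 ± 0.45 and 0.77 ± 0.40 in the same comparison. Among the 10 listed germ cell genes below the filter, no library held more than 10 counts. The summed level of the list was 37.7 to 44.7 CPM in normal liver, 47.5 to 64.3 in the model, 39.0 to 49.2 in arm D and 34.9 to 113.0 in arm G, with Tex12 as its most counted gene in every group mean. The value of 113.0 was that of G.3, beside 48.3 in G.1 and 34.9 in G.4.

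Adam8 was near the lower end of what these libraries can measure in normal liver. Normal libraries held 7, 12 and 6 counts, or 0.448, 0.721 and 0.447 CPM. Model libraries held 26, 71 and 152 counts in M.5, M.6 and M2.1, or 2.11, 6.39 and 8.24 CPM. The highest model value was in M2.1, whose mitochondrial share was 4.90%. Arm D had 4.61, 1.95 and 2.60 CPM from 65, 34 and 43 counts, and arm G had 2.68, 6.47 and 8.25 CPM from 42, 57 and 119 counts. Arms D and G and the model overlapped, with the lowest high-fat value in D.4. Group means were 0.539 ± 0.158 CPM in normal liver, 5.58 ± 3.15 in the model, 3.05 ± 1.39 in arm D and 5.80 ± 2.84 in arm G (SD, n = 3 each). The means ran normal, arm D, model and arm G from low to high, with no neighbouring high-fat groups differing beyond their spread. The log2 fold change against normal was 3.35 ± 0.62 in the model, 2.47 ± 0.61 in arm D and 3.40 ± 0.62 in arm G (SE).

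Other ADAM genes did not move as one family. Of 17 with a row, 9 were tested, 4 with positive and 5 with negative log2 fold changes in the model against normal, with a median of −0.18 beside 0.03 over all genes, and 0 passed in any comparison. Adam9, a close relative with a broad tissue range, had −0.67 ± 0.59, and Adam28 had at most 1 count in a library. Adam11, which lacks a working protease site and is best known in nervous tissue, had 7.43 ± 2.35 CPM in normal and 53.4 ± 31.2 CPM in model liver. Its log2 fold change was 2.84 ± 0.81 (unadjusted p = 0.00419, adjusted p = 0.745, edgeR). Adam17, the main sheddase of tumour necrosis factor, had 0.58 ± 0.23 in arm D against the model (unadjusted p = 0.0256, adjusted p = 0.785, edgeR). Of reported ADAM8 substrates and of metalloproteinase inhibitors 8 were tested, and 0 passed. In the model against normal 2 had positive and 6 negative log2 fold changes, with a median of −0.32. In arm D against the model all 8 were positive, with a median of 0.76 beside −0.04 over all genes, while the Adam8 value was negative. Selplg, a selectin ligand of leukocytes, had 1.41 ± 0.40 there (unadjusted p = 0.00424, adjusted p = 0.783, edgeR).

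Adam8 is a gene of myeloid cells, so marker levels of those cells are given beside it. Of 13 neutrophil markers with a row, 6 were tested, all 6 with positive log2 fold changes in the model against normal (median 1.16), and 0 passed. Their summed level was 9.22 to 11.7 CPM in normal liver, 3.31 to 45.1 in the model, 25.3 to 30.02 in arm D and 12.4 to 56.4 in arm G. The highest values of the model and arm G were those of M.6 and G.3. Without these libraries the highest were 22.8 CPM in M.5 and 25.6 CPM in G.4. M2.1, the model library with the most Adam8, had the lowest neutrophil marker level of all 12 libraries, at 3.31 CPM. The granule genes Mpo and Elane, also on that list, had at most 2 counts and at most 1 count in a library. The 12 Kupffer cell markers, of the resident macrophages of liver, had a summed level of 639 to 874 CPM in normal liver, 309 to 700 in the model, 626 to 1931 in arm D and 409 to 931 in arm G. The lowest values of the model and arm G were those of M.6 and G.3. Without these libraries the lowest were 467 CPM in M2.1 and 868 CPM in G.4. All 12 Kupffer markers were tested. All 12 had negative log2 fold changes in the model against normal (median −0.58) and positive ones in arm D against the model (median 1.44), and 0 passed. Over the 9 high-fat libraries, Pearson's r of log2 CPM between Adam8 and the summed Kupffer markers was −0.70, a description over libraries that share their scaling. It was −0.11 with neutrophil markers and −0.46 with markers of monocytes and lipid-associated macrophages. With T, NK and B cell markers it was −0.43, with sinusoidal endothelial markers −0.40 and with hepatocyte markers −0.38. With stellate, cholangiocyte, and pancreas, adipose and muscle markers it was −0.21, −0.14 and −0.02. Of 12 markers of monocytes and lipid-associated macrophages, 10 were tested and 9 had positive log2 fold changes in the model against normal (median 0.52), with summed levels of 253 CPM in M.5, 201 in M.6 and 82.2 in M2.1. The part of these cells in the level of Adam8 was not tested.

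Tuba3b was the only gene of the 4 whose arm D libraries all lay above the model libraries. Normal libraries held 17, 15 and 17 counts, or 1.09, 0.901 and 1.27 CPM. Model libraries held 32, 53 and 55 counts in M.5, M.6 and M2.1, or 2.59, 4.77 and 2.98 CPM. Arm D libraries held 90, 158 and 105 counts in D.1, D.4 and D.7, or 6.39, 9.06 and 6.35 CPM. The lowest arm D library was 1.33 times the highest model library. Arm G had 139, 20 and 67 counts in G.1, G.3 and G.4, or 8.88, 2.27 and 4.64 CPM, and so spanned the ranges of both the model and arm D. Its lowest value was in G.3, which also had the fewest nuclear-coded counts. Group means were 1.09 ± 0.183 CPM in normal liver, 3.45 ± 1.16 in the model, 7.27 ± 1.56 in arm D and 5.26 ± 3.35 in arm G (SD, n = 3 each). The means ran normal, model, arm G and arm D from low to high, and arm G did not differ from either high-fat neighbour beyond its spread. The log2 fold change against normal was 1.66 ± 0.48 in the model, 2.74 ± 0.49 in arm D and 2.28 ± 0.48 in arm G (SE). Without G.1 the arm G value was 1.67, a fold more than 1.5 times smaller.

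The near-identical relative Tuba3a had at most 2 counts in a library and 5 in all 12. Reads of near-identical alpha-tubulin genes can be split between them in counting, and the counting tool is not given, so the level of Tuba3b carries that uncertainty. Of all counts of alpha-tubulin genes in a library, with no correction for length, Tuba3b made up 1.39%, 1.67% and 1.56% in normal liver. It made up 2.12%, 5.38% and 3.44% in M.5, M.6 and M2.1, 5.76%, 8.52% and 5.79% in arm D, and 11.7%, 3.35% and 5.13% in G.1, G.3 and G.4. Every high-fat library thus had a larger share of Tuba3b than every normal library, and every arm D share exceeded every model share. The shares use the Tuba3b counts for which the gene was chosen and which set arm D above the model in CPM. They are thus no separate result. Values of the other alpha-tubulins in the model against normal are given beside it. Tuba3b was chosen for its own difference from normal, so nothing is read from theirs being smaller. Tuba1b had 31.7 CPM in normal and 43.7 CPM in model liver, a log2 fold change of 0.46 ± 0.28, and Tuba4a had 0.34 ± 0.32. Tuba1a had 0.97 ± 0.58 and Tuba1c, at 0 to 15 counts, −1.82 ± 1.30. None of the 4 tested alpha-tubulins other than Tuba3b passed in any comparison, and their median was 0.40 in the model against normal and 0.08 in arm D against the model. Of 9 tested beta, gamma, delta and epsilon tubulins, 8 had positive log2 fold changes in the model against normal (median 0.73) and 6 had negative ones in arm D against the model (median −0.21), and 0 passed. Tubb2a, a beta-tubulin, had −1.23 ± 0.37 in arm D against the model (unadjusted p = 0.00607, adjusted p = 0.783, edgeR).

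**Figure D2:**
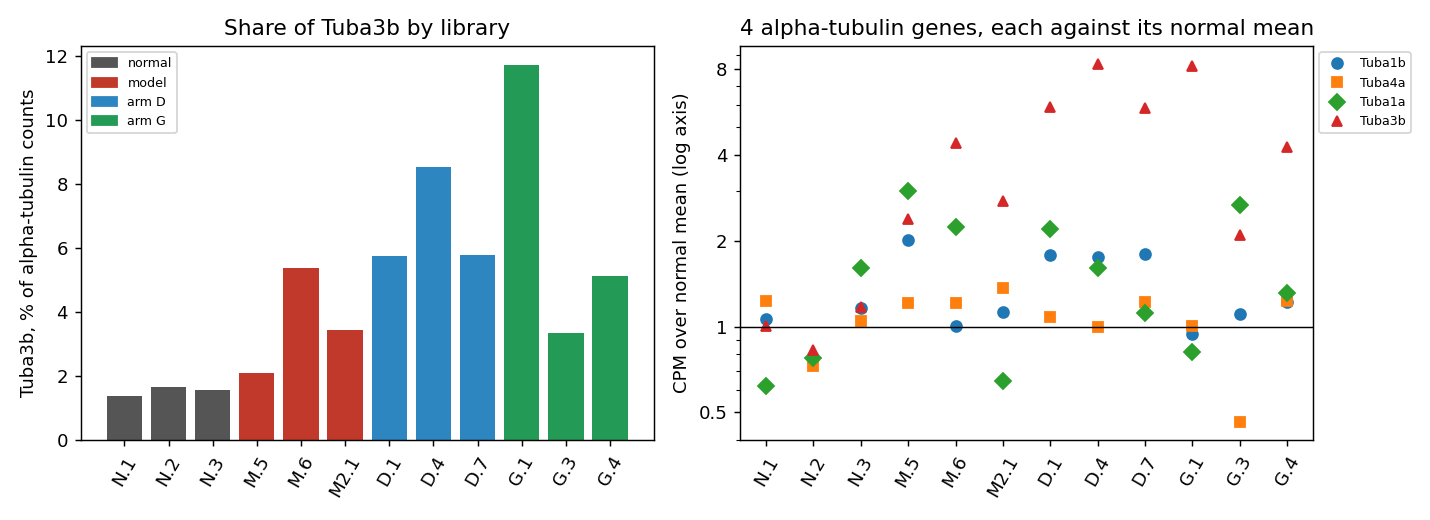
Left, bars of the share of Tuba3b among all alpha-tubulin counts of a library, in percent, coloured by group; right, CPM of 4 alpha-tubulin genes in each library over the mean of the 3 normal libraries of that gene, on a log axis with a line at 1. Tuba3b lies above its normal mean in all 9 high-fat libraries, for which it was chosen, so nothing is read from that. Tuba1b and Tuba4a range between 0.461 and 2.01 times their normal means. Tuba1a, over its own normal mean, is above Tuba3b in M.5 and in G.3 (2.68 against 2.09 times in G.3). It is below Tuba3b in the other high-fat libraries.

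The didymin arms were set against the model, which had the diet without didymin. None of the 4 passed in any of the 3 comparisons between high-fat groups, where the background of calls was 0% of the tested genes. The model libraries enter both comparisons with the didymin arms, so the values are set side by side. Libraries of the model and of both didymin arms also entered the choice of the genes. In arm D against the model, Tuba3b had a log2 fold change of 1.08 ± 0.45, or 2.11-fold, with a 95% interval of 0.10 to 2.06 (unadjusted p = 0.0340, adjusted p = 0.786, edgeR). The direction is away from the normal level. Tuba3b was the single gene of the 4 with all arm D libraries above all model libraries, a pattern found in 733 genes (5.93%). In arm G against the model Tuba3b had 0.63 ± 0.45, with an interval of −0.36 to 1.61 (adjusted p = 0.9997, edgeR). That value turned on single libraries: it was 0.02 without G.1, 0.99 without G.3 (unadjusted p = 0.0260, adjusted p = 0.642, edgeR) and 1.28 without both M.6 and G.3 (unadjusted p = 0.00823, adjusted p = 0.999, edgeR). Summed markers of some other cell types had higher means in arm D too. Libraries overlapped for Kupffer cells and were separate for sinusoidal endothelial cells and for T, NK and B cells. Kupffer markers had 626 to 1931 CPM in arm D against 309 to 700 in the model, with r = 0.66 to Tuba3b over the 9 high-fat libraries. Sinusoidal endothelial markers had 249 to 296 CPM against 135 to 203 (6 of 6 tested genes positive, median 0.76, r = 0.67), and T, NK and B cell markers had 36.6 to 68.2 CPM against 21.0 to 30.3 (8 of 9 positive, median 0.34, r = 0.56). Some lists went otherwise in arm D against the model. Stellate and fibroblast markers had 2 positive and 7 negative genes (median −0.23, r = −0.61), and cholangiocyte markers 2 and 3 (median −0.57, r = 0.17). Neutrophil markers had 2 positive and 4 negative genes (median −0.46, r = −0.01). Each r contains the difference between arm D and the model itself. No gene of any of these lists passed, as no tested gene did. At an unadjusted p under 0.05 (edgeR), 11 of 12 Kupffer and 4 of 6 sinusoidal endothelial markers were higher in arm D. So was 1 of 9 T, NK and B cell markers, while 1 of 9 stellate and fibroblast markers was lower. Neutrophil and cholangiocyte markers had 0, and all tested genes 6.28% in either direction. The part of these cells in the Tuba3b difference was not tested.

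The other 3 genes had intervals that included 0 in each comparison. Tmem150c had −0.06 ± 0.22 in arm D, with an interval of −0.55 to 0.42, and 0.06 ± 0.22 in arm G, with an interval of −0.42 to 0.54. Tex13b had −0.63 ± 0.53 in arm D (−1.78 to 0.52) and −0.44 ± 0.53 in arm G (−1.58 to 0.71). Without M.6 these turned to 0.33 and 0.52, so their direction rests on that 1 library. Adam8 had −0.88 ± 0.55 in arm D (−2.07 to 0.32; adjusted p = 0.802, edgeR) and 0.05 ± 0.54 in arm G (−1.13 to 1.23). None of the 4 genes had all arm D libraries below all model libraries, a pattern of 829 genes (6.71%), and none had arm G libraries apart from the model, as 322 genes (2.61%) had above and 258 (2.09%) below it. Shifts inside these intervals are not excluded with 3 libraries a group.

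Arm G against arm D gave 0.12 ± 0.22 for Tmem150c (−0.36 to 0.61), 0.19 ± 0.53 for Tex13b (−0.95 to 1.34), 0.92 ± 0.55 for Adam8 (−0.27 to 2.12) and −0.45 ± 0.45 for Tuba3b (−1.42 to 0.51). The Tuba3b value was −1.06 without G.1 (unadjusted p = 0.0356, adjusted p = 0.696, edgeR) and −0.12 without G.3. All 4 adjusted p-values were 0.999 by edgeR, and in none of the 4 did the libraries of the 2 arms stand apart, as 504 genes (4.08%) had higher and 414 (3.35%) lower in arm G. The authors' deposited table gives log2 fold changes of −0.08, −0.63, −0.89 and 1.07 for Tmem150c, Tex13b, Adam8 and Tuba3b in arm D over the model, with deposited adjusted p-values of 0.989, 0.892, 0.792 and 0.372. The authors' deposited table for arm G over the model gives 0.04, −0.44, 0.03 and 0.62.

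**Figure D3:**
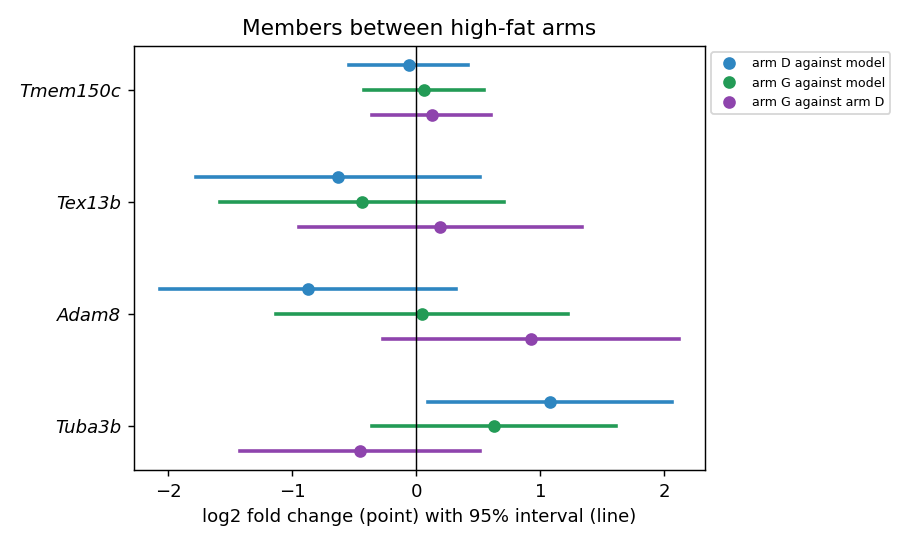
Log2 fold change (points) with its 95% interval (lines) for the 4 genes in 3 comparisons, arm D against the model, arm G against the model and arm G against arm D. Only the interval of Tuba3b in arm D against the model, 0.10 to 2.06, leaves out 0, and it does not pass after adjustment over all genes.

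Among themselves the 4 genes tracked each other over the 12 libraries and much less within the high-fat libraries. Pearson's r of log2 CPM over 12 libraries was 0.91 between Tmem150c and Tex13b, 0.88 between Tmem150c and Adam8, and 0.58 to 0.79 for the other pairs. These values contain the difference for which the genes were chosen. Over the 9 high-fat libraries, r was −0.10 for Tmem150c with Tex13b and 0.45 for Tmem150c with Adam8. Tmem150c and Tuba3b ran in opposite directions there, with r = −0.77 (Spearman's rho −0.82), G.3 being the highest of the 9 in Tmem150c and the lowest in Tuba3b. Adam8 and Tuba3b had r = −0.47, Tex13b and Tuba3b 0.22, and Tex13b and Adam8 −0.06. All points share their library sizes and scaling, and no test was made.

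For each member the 3 genes with the highest r over the 12 libraries were taken among 11383 genes of at least 1 CPM. This r contains the difference for which the members were chosen, so a high rank need not mean likeness within the high-fat libraries. For Tmem150c the 3 genes were Tex13b and Adam8 (r = −0.10 and 0.45 over the 9 high-fat libraries) and LOC100910057. The last had r = 0.88 over 12 and 0.85 over the 9 high-fat libraries. For Tex13b they were Tmem150c, Igh-6 (an immunoglobulin heavy chain, r = 0.87 over 12 and 0.61 over 9) and Tnfsf13 (a ligand that acts on B cells, r = 0.87 and 0.47). Igh-6 had a mean of 7.24 CPM in normal and 59.7 CPM in the high-fat libraries. For Adam8 they were Tmem150c, Mok (a protein kinase, r = 0.85 and 0.53) and Tpd52l1 (r = 0.84 and 0.56). For Tuba3b they were Rhoc (a small GTPase that acts on the actin cytoskeleton, r = 0.93), Cyb561 (a membrane cytochrome, r = 0.88) and Wfikkn2 (a secreted protein that binds myostatin, r = 0.86). Within the 9 high-fat libraries these had r of 0.81, 0.85 and 0.82, and Rhoc had a mean of 8.91 CPM in normal liver, 13.9 in the model, 20.2 in arm D and 14.7 in arm G.

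The 4 genes differed in their correlation with the mitochondrial share within the high-fat libraries. Over 9 libraries Pearson's r with log2 CPM was 0.75 for Tmem150c, 0.54 for Tex13b, 0.35 for Adam8 and −0.55 for Tuba3b. Spearman's rho was 0.37, 0.42, 0.17 and −0.48 in the same order. Without M.6 and G.3, over 7 libraries, r was 0.47, 0.15, −0.19 and −0.42, and rho was 0.11, 0.21, 0.0 and −0.29. All 4 values of r moved down in size without these libraries, of which G.3 had the highest Tmem150c, at 31.2 CPM, and M.6 the highest Tex13b, at 46.8 CPM. Scaling by nuclear-coded counts alone gave r of 0.71, 0.53, 0.34 and −0.56 over the 9 libraries. As a description of the difference that chose the genes, without both libraries the log2 fold change of the model against normal was 1.49 for Tmem150c, 2.79 for Tex13b, 3.24 for Adam8 and 1.36 for Tuba3b. N.3, with the highest mitochondrial share of the normal libraries (11.2%), was the lowest of them in Tmem150c and Tex13b, level with N.1 in Adam8 and the highest in Tuba3b.

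**Figure D4:**
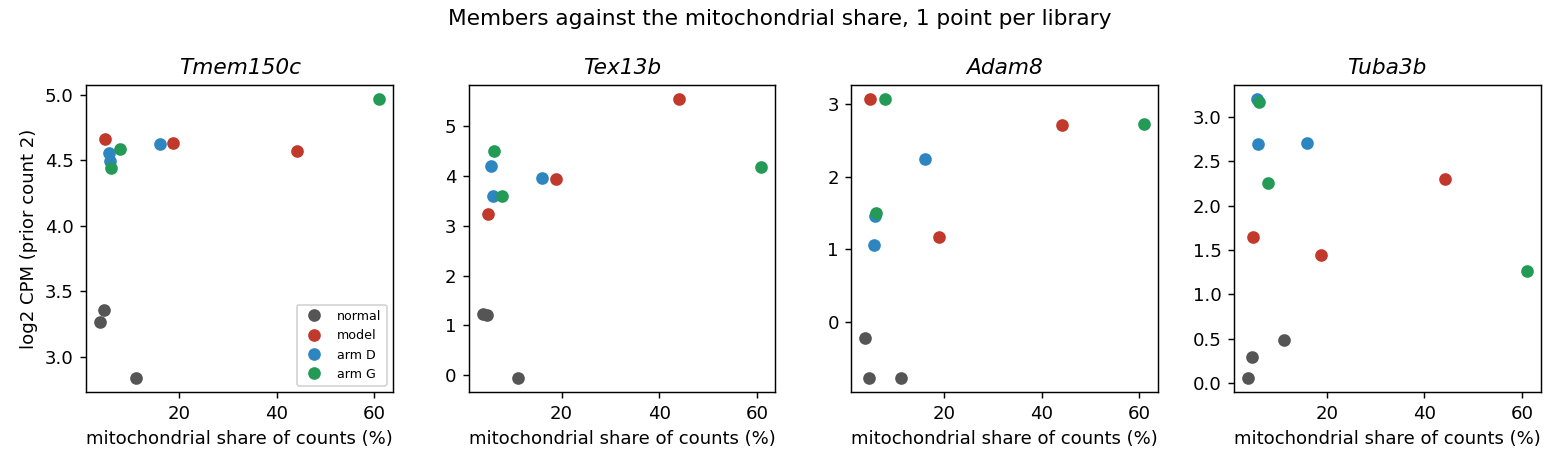
Log2 CPM (prior count 2) of each of the 4 genes against the percentage of counts from mitochondrially coded genes, 1 point per library coloured by group. The points at 44.1% and 61.0% are M.6 and G.3. High-fat points lie above normal points in each panel, at shares under 20% as well. The genes were chosen for that difference, so nothing is read from it.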

How the data were processed

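Per the labels' protocols, liver RNA was prepared by Trizol and made into NEBNext Ultra libraries, of which there are 12 libraries in 4 groups of 3. The authors deposited 3 tables of 6 libraries that share the 3 model libraries, whose counts differed at 0 genes between tables. Whole-number read counts of each gene, named so per the file headers, were the values analysed. The submitters' processing notes name DESeq2 and mm9, a mouse build, while 14408 of 16558 names equal a rat symbol of RefSeq and 747 a synonym, so no coordinates come from the tables. The sources used here do not name the aligner, the counting tool, the annotation or whether strand was used. Log2 fold changes and adjusted p-values of the authors' deposited table are printed only beside its name. A further 36 per-sample columns of normalized values went unused. A gene missing from a table was taken as 0 there.

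Columns were matched to groups by their letters and not to single samples. D and G stand for the didymin doses in an order that the labels leave unstated. Between libraries of a group, chi-square per degree of freedom of the counts was 22.4 to 893, so none was the same library deposited again; whether 2 libraries came from 1 animal was not tested.

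Counts were tested with edgeR 4.0.16 (R 4.3.3): filterByExpr, TMM, 1 quasi-likelihood fit of all 12 libraries with a mean per group, 8 residual degrees of freedom, and Benjamini-Hochberg adjustment over 12355 genes at 0.05. The common biological coefficient of variation was 0.409, and 0.228 for Tmem150c, 0.460 for Tex13b, 0.480 for Adam8 and 0.397 for Tuba3b. On simulated counts for arm D against the model (12219 genes), 76% of 100 genes changed 4-fold and 95% of 100 genes changed 8-fold were called. These rates describe the simulated counts alone and are not the power of the test in these libraries. Whether they hold for genes of low count, or with libraries of high mitochondrial share, was not tested. Precision is given as SD over libraries, SE and 95% intervals. Correlations used log2 CPM with a prior count of 2.

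The 4 genes and the gene lists were chosen with earlier results of these data known. The rule names the 4 genes, the 3 genes of highest r with each over the 12 libraries, their nearest relatives, and up to 3 genes of smallest p in each list described. Lists described above in part or not at all (stellate, cholangiocyte, endothelial, lymphocyte, hepatocyte, and pancreas, adipose and muscle markers) had 0 genes past the threshold in any comparison by edgeR. Their medians in the model against normal were −0.13, 0.42, −0.37, 0.38, −0.53 and 0.45. Alternatives were DESeq2 1.42.0, limma-voom (limma 3.58.1), DESeq2 size factors, nuclear-coded counts only, no filter, only the groups compared, and leaving out libraries. Promoters were aligned with Biopython 1.88.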

Additional observations from a re-analysis of the deposited data

Results flagged for a closer look

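Among the 6 didymin libraries, Tmem150c at 31.2 CPM in G.3 stood apart from the other 5. Its gap to the nearest library made up 0.696 of the whole range, above Dixon's 95% critical value for 6 samples. Chance flags about 1 in 20 such groups, and 4 genes were examined. G.3 also had the highest mitochondrial share, 61.0%, and the part of that share in the value was not tested. The count itself, 275, was the lowest of arm G.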

How the results depend on the processing

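For the 4 genes 24 fold changes were recomputed under 456 alternatives in all. Of the 228 between high-fat groups, 216 kept their direction and stayed short of the threshold, and 12 changed sign. The 228 against normal liver carry no test, and their direction was fixed by the choice of the genes. Without both M.6 and G.3, Tmem150c became −0.12 in arm G against the model and −0.059 in arm G against arm D, and Tex13b became 0.35 in arm D and 0.51 in arm G against the model. Leaving out 1 library at a time, Tmem150c ranged from −0.094 (without G.3) to 0.16 in arm G against the model and from −0.059 (without G.3) to 0.22 in arm G against arm D. Tex13b ranged from −1.01 to 0.33 (without M.6) in arm D and from −0.82 to 0.52 (without M.6) in arm G against the model, and from −0.037 (without G.1) to 0.39 in arm G against arm D. Adam8 ranged from −0.34 (without M.5) to 0.45 in arm G against the model. Tuba3b kept its sign in arm D against the model, between 0.89 (without D.4) and 1.41 (without both M.6 and G.3), with unadjusted p from 0.00339 to 0.112 and adjusted p from 0.326 to 0.9998 by edgeR, DESeq2 or limma-voom. Its unadjusted p was above 0.05 without M.5 (0.105), M2.1 (0.0824) or D.4 (0.112). The cause of these shifts was not tested.

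The number of genes called, 0 in each comparison, became 42, 84 and 51 with DESeq2 for the model, arm D and arm G against normal, 14 and 5 for arm D and arm G against the model, and 5 for arm G against arm D. It became 3 for the model against normal and 1 for arm G against arm D with no filter, 2 for arm D against normal with only those groups fitted, and 1 for the model against normal without both M.6 and G.3. Leaving out 1 library gave 0 to 6 (6 without G.3) for the model against normal, and 0 to 1 for arm G against normal and for arm G against arm D. No paired analysis was possible because the count columns do not carry the replicate numbers of the labels. Adam8 and Tuba3b had 6 to 17 counts per normal library, which limits the precision of their fold changes.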
